A study of Mus musculus with 25 samples.

Results

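The 10 genes described here encode the Slit ligands and their Robo receptors (Slit2, Slit3, Robo1, Robo2) and netrin 1 with its receptors (Ntn1, Dcc, Neo1, Unc5b, Unc5c, Unc5d). Their rows were found by gene symbol, and each had its own row among the 37406 genes of the expression table. The tissue was secondary palate of wild type CD1 mouse embryos at E14.5, from which 8 compartments were isolated by laser capture microdissection, in which a laser cuts chosen cells out of a section. The compartments were the medial, lateral, oral and nasal regions of the anterior palate and the same regions of the posterior palate. Each had 3 libraries except the anterior nasal compartment, which had 4, giving 13 anterior and 12 posterior libraries. The medial and lateral regions and the oral and nasal regions are 2 ways of dividing the same shelf, so tissue of one division also belongs to the other. The labels do not say whether replicates came from separate embryos or litters, so p-values measure the spread between these libraries only.

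Slit proteins are secreted and bind Robo receptors on nearby cells, and the pair is best known for repelling growing axons at the midline of the nervous system. Netrin 1 is a secreted protein that attracts cells and axons through Dcc and its relative neogenin, and repels them when receptors of the UNC5 family take part. The same proteins act outside the nervous system in cell migration, adhesion, survival and vessel growth. The palatal shelves are mostly mesenchyme, much of it derived from the neural crest, under a thin epithelium.

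Levels are given as RPKM, read counts scaled by transcript length and library size, as the authors deposited them. The step size of the deposited values gave between 1.64 and 6.56 M reads behind each library (median 3.27 M). These totals are far below the sequencing depth that the study's methods state, for a reason the files do not give, so read numbers and counting errors derived from them are estimates. Posterior medial replicate 2 stood apart, with 12935 genes above 0 against 16330 to 20605 in the others. The weakest member values rested on few reads by this estimate, about 9.38 for Unc5b in that library and 12.3 for Ntn1 in posterior nasal replicate 3. The position markers Shox2 (log2 difference -3.66, posterior minus anterior) and Barx1 (4.72) separated the ends of the palate, and mesenchyme markers were present in every library, at a summed level of 575 to 1215 RPKM. The libraries came from 8 sequencing runs, and the anterior lateral and medial compartments shared none, as did the posterior lateral and medial ones. Run and compartment therefore cannot be told apart in the lateral to medial comparisons. In these bulk samples, fewer cells of a type and less RNA per cell cannot be told apart either.

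Neo1 and Robo1 were the most abundant of the 10 genes per length, and Ntn1 the least. Neo1, the netrin and repulsive guidance molecule receptor neogenin (chromosome 9, 58722487 to 58884248, mm9), ranged from 35.6 to 56.4 RPKM over all 25 libraries with a median of 46.7. Robo1 (chromosome 16, 72663394 to 73046345) had a median of 34.8 RPKM and Slit3 (chromosome 11, 34934958 to 35522009) of 28.2 RPKM. The other 7 genes had lower medians. Robo2 (chromosome 16, 73892551 to 74411157) had a median of 21.9 RPKM, Unc5c (chromosome 3, 141128528 to 141497886) of 18.9 and Slit2 (chromosome 5, 48374394 to 48697017) of 11.0. Unc5d (chromosome 8, 29757189 to 30330108) had a median of 9.33 RPKM, Dcc (chromosome 18, 71413286 to 72510723) of 7.56, Unc5b (chromosome 10, 60225343 to 60294329) of 7.03 and Ntn1 (chromosome 11, 68022866 to 68200328) of 4.68. Every receptor among the 10 thus had a higher median than Ntn1, a netrin ligand, which reached 5 RPKM in 11 of 25 libraries. Ntn3, a netrin gene outside the 10, had a median of 14.0 RPKM, above those of Unc5d, Dcc and Unc5b. It reached 5 RPKM in 24 libraries.

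**Figure D1:**
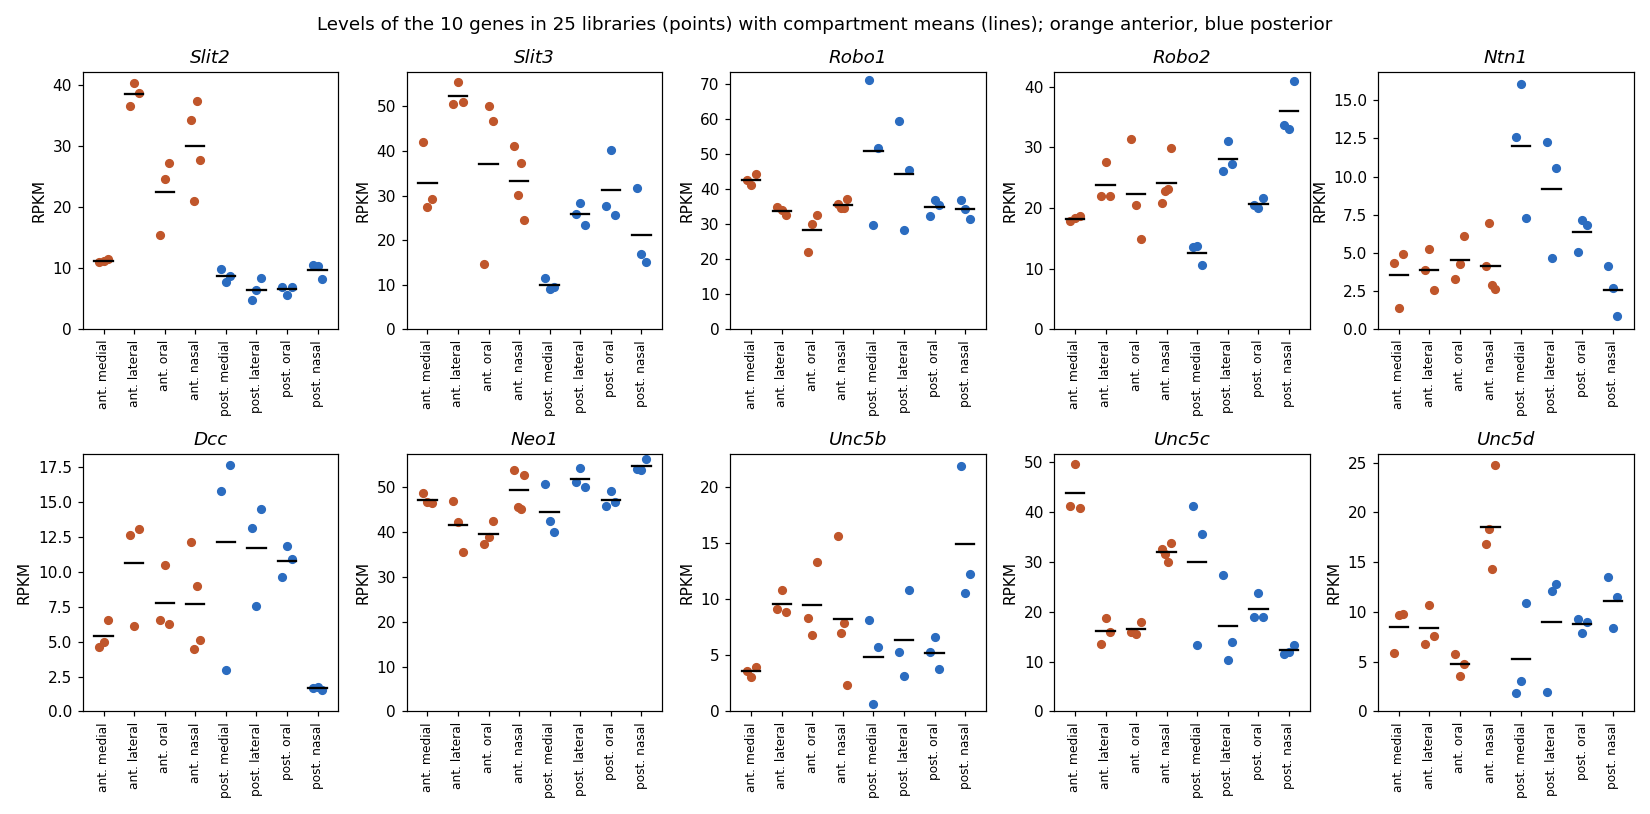
RPKM (y axis, from 0) of the 10 genes in the 8 compartments, with 1 point per library and a line at each compartment mean; orange is anterior and blue posterior. Slit2 lay between 11.0 and 40.3 RPKM in the 13 anterior libraries and between 4.75 and 10.6 in the 12 posterior ones, and Dcc lay between 1.56 and 1.72 in posterior nasal libraries.

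Of the 10 genes, 5 differed among the 8 compartments at an adjusted p under 0.05 (limma F test, Benjamini-Hochberg over 11913 genes), where 4.42% of all genes tested did. These were Slit2 (adjusted p = 1.05e-06), Robo2 (0.00576), Slit3 (0.0106), Unc5c (0.0115) and Dcc (0.0208). Ntn1 (adjusted p = 0.113), Unc5d (0.231), Neo1 (0.519), Unc5b (0.549) and Robo1 (0.721) did not pass. With Ntn1 and Unc5d, 7 members had an unadjusted p under 0.05, where 12% of genes had such a p. With the sequencing run in the fit, 1 of the 5 stayed past the threshold, Slit2, where 1.49% of genes passed. Without the 6 libraries whose alignment names contain Tgfbr2 or ERK2, 4 passed, where 3.57% of genes did, and Dcc did not (adjusted p = 0.245). In the order of compartment means, Slit2 and Robo2 separated neighbouring compartments without overlap at 3 of 7 steps. Slit3, Unc5c and Robo1 did so at 2, Dcc and Unc5d at 1, and Neo1, Ntn1 and Unc5b at 0. The share of all genes with such steps was not computed, so these counts describe order only.

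Upstream sequences are printed for Slit2 and Unc5b, the members past the threshold that were higher in the anterior lateral compartment, to show what precedes their starts. Both are from RefSeq on build GRCm38.p6, which differs from the mm9 build of the expression table. They hold the 250 bases before the annotated start, 5′ to 3′ on the gene's strand, with motif matches in capitals. The Slit2 sequence is chr5:47982905-47983154 on the plus strand and the Unc5b sequence chr10:60831582-60831831 on the minus strand.
Slit2: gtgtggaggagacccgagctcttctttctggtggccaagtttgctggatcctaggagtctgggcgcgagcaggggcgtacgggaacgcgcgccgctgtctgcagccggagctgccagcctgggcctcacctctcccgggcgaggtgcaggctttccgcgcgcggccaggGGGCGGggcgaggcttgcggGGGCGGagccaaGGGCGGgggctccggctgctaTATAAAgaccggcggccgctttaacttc
Unc5b: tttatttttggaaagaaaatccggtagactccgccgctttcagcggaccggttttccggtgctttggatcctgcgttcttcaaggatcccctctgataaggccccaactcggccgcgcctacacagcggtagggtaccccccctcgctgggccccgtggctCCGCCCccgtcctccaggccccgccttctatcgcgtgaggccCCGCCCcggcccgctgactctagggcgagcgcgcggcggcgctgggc
The motifs searched on both strands were the TATA box TATAAA, the CCAAT box CCAAT, the GC box GGGCGG and the Gli motif GACCACCCA, none of which contains another. The Slit2 sequence held 1 TATA box and 3 GC boxes, and the Unc5b sequence 2 GC boxes. Of 32851 promoters of the same length, 12.4% held the TATA box, 33.8% the CCAAT box, 32.7% the GC box and 0.225% the Gli motif.

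The first comparison asked which genes differ between the anterior and posterior palate. Slit2, a ligand, had the lowest p of the members. In the anterior libraries it ranged from 11.0 through a median of 27.2 to 40.3 RPKM, and in the posterior libraries from 4.75 through 8.02 to 10.6 RPKM. No posterior library reached an anterior one. The posterior level was lower by a log2 difference of -1.59 (SE 0.22, adjusted p = 3.07e-05, limma). Slit2 met the expression minimum of 10 RPKM through the anterior libraries, since most posterior ones were under it. With no minimum it still passed, where 2.17% of genes did. Of 9 members tested, 2 passed the adjusted threshold, where 3.32% of 8608 genes did. The same 2 were those with an unadjusted p under 0.05, where 15.3% of genes had such a p, and Slit2 was the only member without overlap, as were 0.267% of genes. Slit3, the other Slit ligand, ranged from 14.6 through 41.1 to 55.4 RPKM in anterior and from 9.06 through 24.4 to 40.3 RPKM in posterior libraries, which overlap. Its log2 difference was -0.86 (SE 0.24, adjusted p = 0.0455), and it stayed past the threshold in 16 of 37 alternatives, against 37 of 37 for Slit2. Without the 6 libraries whose alignment names contain Tgfbr2 or ERK2, the log2 differences were -1.55 for Slit2 (adjusted p = 0.00229) and -0.97 for Slit3 (adjusted p = 0.0782). Ntn1 was under the expression minimum and was not tested. It ranged from 1.38 through 4.11 to 6.97 RPKM in anterior and from 0.834 through 7.02 to 16.1 RPKM in posterior libraries, which overlap.

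Slit2 also differed within shared sequencing runs. In the run that held both anterior medial and 3 posterior compartments, the 3 anterior libraries had 10.96 to 11.46 RPKM and the 5 posterior ones 5.63 to 10.3. In another run, anterior lateral replicate 3 had 38.6 RPKM and 3 posterior libraries 6.37 to 8.36. A further run held 2 anterior libraries at 27.2 and 27.7 RPKM and 2 posterior ones at 6.92 and 10.6, and these are the 4 libraries whose alignment names contain Tgfbr2. The anterior libraries were therefore higher in each of the 3 runs that held both ends of the palate, but by different amounts. The summed level of the pericyte and smooth muscle markers correlated with Slit2 across the 25 libraries with a Pearson r of 0.72, a description over libraries that share runs and depth. Its mean was higher in anterior than posterior lateral (157 against 64.1 RPKM), oral (125 against 93.8) and nasal libraries (119 against 83.2). In the medial region it was lower in anterior libraries (103 against 110), unlike Slit2. The part of that marker list in the difference was not tested.

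Position by position, every posterior library had less Slit2 than every anterior library of the same region. In the fit of all 8 compartments the lateral difference was -2.58 (SE 0.24, adjusted p = 3.44e-06), the oral -1.73 (adjusted p = 6.45e-04) and the nasal -1.59 (adjusted p = 7.30e-04), all on the log2 scale. In the medial region Slit2 averaged 11.2 ± 0.256 RPKM (SD, n = 3) in anterior and 8.77 RPKM in posterior libraries, and this difference did not pass (adjusted p = 0.490, limma). The shares of all genes past the threshold were 0.865% (lateral), 0.512% (oral), 1.91% (nasal) and 1.66% (medial). Slit3 passed in the medial region only (log2 difference -1.69, adjusted p = 0.0181). In the nasal region Dcc (-2.04, adjusted p = 0.0282) and Unc5c (-1.38, adjusted p = 0.0245) also passed, both lower in the posterior libraries.

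Between the anterior lateral and medial compartments 3 of 9 members tested passed the adjusted threshold, where 2.51% of 10427 genes did. Slit2 and Unc5b were higher and Unc5c lower in the lateral libraries. Slit2 had 36.4, 40.3 and 38.6 RPKM in the 3 lateral libraries and 11.0, 11.1 and 11.5 in the 3 medial ones. The groups do not overlap, and the log2 difference was 1.77 (SE 0.11, adjusted p = 5.56e-04, limma). Unc5b, a netrin receptor also known in blood vessels, had 9.08, 10.8 and 8.88 RPKM in lateral and 3.62, 3.08 and 3.99 in medial libraries. Its log2 difference was 1.40 (SE 0.14, adjusted p = 0.00423). Unc5b met the expression minimum through the lateral libraries alone, and fell under it when any of them was left out. With no minimum its adjusted p was 0.0346. Unc5c, a receptor of the same family, showed the reverse, with 13.6, 18.8 and 16.0 RPKM in lateral and 41.3, 49.7 and 40.8 in medial libraries. Its log2 difference was -1.45 (SE 0.16, adjusted p = 0.00514), again without overlap. The values of 6 of the 9 members tested did not overlap, which held for 21.3% of genes. With the sequencing run as a covariate, estimated through the other compartments, 0 members passed, and 0% of 10427 genes did. With all 25 libraries in 1 fit Slit2 alone passed among the members, where 0.297% of genes did.

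At an unadjusted p under 0.05 there were 7 members, where 15% of genes had such a p, and 4 of these did not pass the adjusted threshold, namely Slit3 (log2 difference 0.69, adjusted p = 0.102, limma), Robo1 (-0.34, 0.169), Robo2 (0.37, 0.225) and Dcc (0.90, 0.196). Marker levels moved with the same groups. The pericyte and smooth muscle markers summed to 155 to 158 RPKM in lateral and 89.1 to 124 in medial libraries, the endothelium markers to 147 to 170 and 102 to 126. Cartilage markers summed to 20.3 to 21.5 RPKM in lateral and 66.0 to 107 in medial libraries, and neuron and Schwann cell markers to 23.0 to 26.9 and 39.1 to 62.1. Their part in the differences was not tested.

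In the posterior palate the lateral to medial comparison called 0 of 10 members, and 0% of 10324 genes passed, with a lowest adjusted p over all genes of 0.450 (limma). At an unadjusted p under 0.05 there were 2 members, where 1.54% of genes had such a p. Slit3 had 26.0, 28.2 and 23.3 RPKM in lateral and 11.4, 9.06 and 9.53 in medial libraries (log2 difference 1.36, adjusted p = 0.957). Robo2, a Slit receptor, had 26.0, 31.1 and 27.3 RPKM in lateral and 13.6, 13.7 and 10.6 in medial libraries (log2 difference 1.15, adjusted p = 0.957). The values of neither gene overlapped between the groups, which held for 6.62% of genes.

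**Figure D2:**
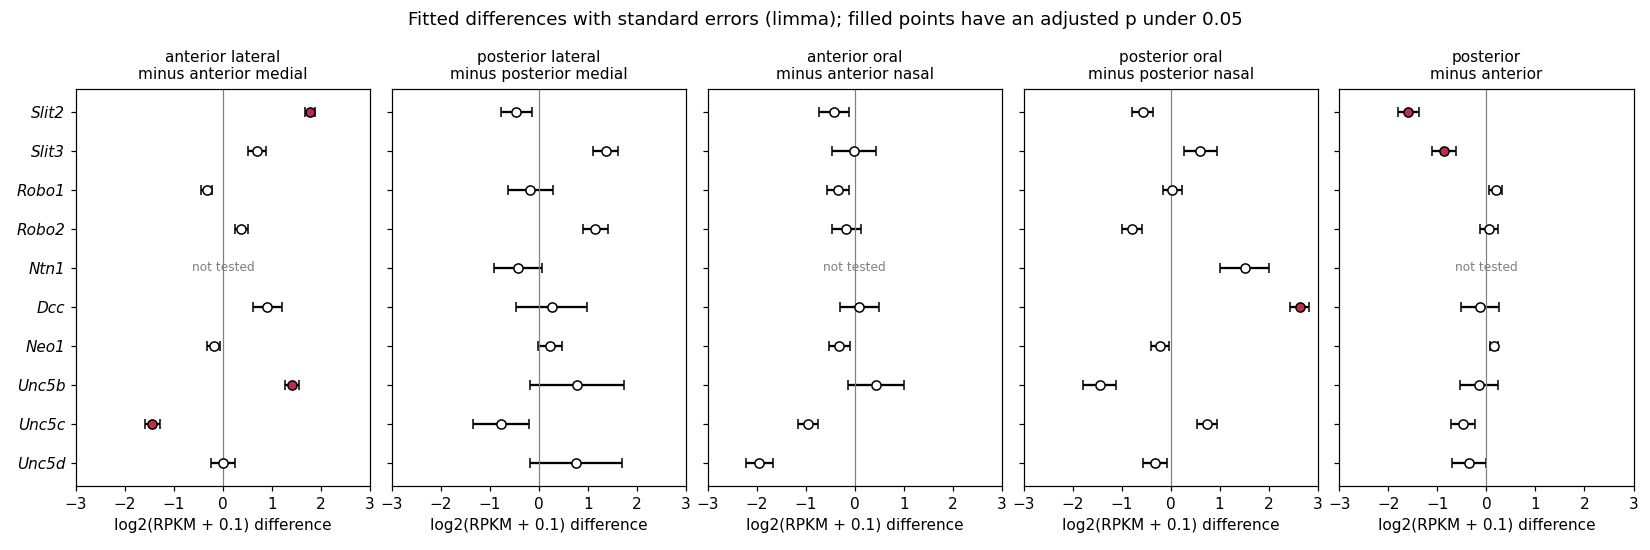
Fitted differences of log2(RPKM + 0.1) (x axis) for each gene (rows) in the 5 comparisons, with bars of 1 standard error; filled points passed the adjusted p of 0.05 and genes under the expression minimum are marked as not tested. Slit2 and Slit3 were lower in the posterior palate, and Dcc had the furthest filled point, at 2.63 between posterior oral and nasal libraries.

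The oral to nasal comparisons asked how the shelf differs from its future mouth side to its nose side. In the posterior palate Dcc, the attractive netrin receptor, was the member past the adjusted threshold, 1 of 10 where 1.25% of 10586 genes passed. It had 9.63, 11.8 and 10.9 RPKM in the oral libraries and 1.67, 1.72 and 1.56 in the nasal ones. The groups do not overlap, with a log2 difference of 2.63 (SE 0.20, adjusted p = 0.00175, limma). Dcc met the expression minimum through the oral libraries alone, and with no minimum the adjusted p was 0.0420. Within the 2 runs that held both sides the oral libraries were also higher, at 9.63 against 1.67 RPKM, in libraries whose alignment names contain Tgfbr2, and at 10.9 and 11.8 against 1.72. With the run as a covariate, estimated over all compartments, the adjusted p was 0.190. With the run as a block among the compared libraries, chosen after seeing the data, Dcc passed, where 0.142% of genes did. It passed in 12 of the 13 alternatives in which it met the minimum.

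At an unadjusted p under 0.05 there were 6 members, where 8% of genes had such a p, and 5 of these did not pass the adjusted threshold. Ntn1, a ligand of Dcc, had 5.03, 7.18 and 6.85 RPKM in oral and 4.16, 2.71 and 0.834 in nasal libraries. Its log2 difference was 1.51 (adjusted p = 0.345, limma). Ntn1 met the expression minimum through the oral libraries alone, and Unc5b only with its nasal libraries. Unc5b had a log2 difference of -1.45 (adjusted p = 0.107), Robo2 of -0.78 (0.153), Slit2 of -0.57 (0.462) and Unc5c of 0.74 (0.206). The values of 7 of the 10 members did not overlap, which held for 11.8% of genes. Osteoblast markers summed to 378 to 547 RPKM in the nasal and 83.5 to 107 in the oral libraries, with 4 of 4 tested past the threshold and a smallest adjusted p of 0.0512 with no expression minimum. Endothelium markers summed to 56.8 to 85.3 RPKM in nasal and 128 to 186 in oral libraries. Dcc had a Pearson r of -0.65 with the osteoblast sum and 0.67 with the endothelium sum over 25 libraries that share runs, and the part of either in the Dcc difference was not tested.

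In the anterior palate 0 of 9 members tested passed between oral and nasal libraries, and 0% of 10684 genes did (limma). At an unadjusted p under 0.05 there were 2 members, where 2.98% of genes had such a p. Unc5d had 5.82, 3.58 and 4.82 RPKM in oral and 16.8, 18.4, 14.3 and 24.7 in nasal libraries (log2 difference -1.94, SE 0.28, adjusted p = 0.193). It met the expression minimum only with its nasal libraries, and with no minimum 0% of 22072 genes passed. Unc5c had 16.0, 15.6 and 17.9 RPKM in oral and 32.7, 31.7, 30.1 and 33.8 in nasal libraries (log2 difference -0.95, SE 0.21, adjusted p = 0.533). In each of 3 shared runs the oral library of both genes was below the nasal libraries of its run, and 1 of these runs held only libraries whose alignment names contain Tgfbr2. The values of 4 members did not overlap, which held for 3.67% of genes. Cartilage markers summed to 17.0 to 48.4 RPKM in oral and 55.3 to 98.8 in nasal libraries.

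The difference of the oral to nasal differences between the ends of the palate passed for 1 member of 10, Unc5c, where 0.035% of 11442 genes passed. At an unadjusted p under 0.05 there were 4, where 3.38% of genes had such a p. The anterior oral libraries were below the nasal ones and the posterior oral libraries, at 18.9, 23.8 and 18.9 RPKM, above the nasal ones at 11.5, 11.9 and 13.3. The interaction was 1.69 on the log2 scale (SE 0.25, adjusted p = 0.0463, limma), and it stayed past the threshold in 1 of 23 alternatives. Dcc had an interaction of 2.55 (adjusted p = 0.103), Unc5d of 1.63 (0.241) and Unc5b of -1.87 (1.00). For the lateral to medial differences 0 of 10 members passed, where 0.00902% of 11089 genes did, and Slit2 had an interaction of -2.23 (SE 0.30, adjusted p = 0.106). Slit2, Slit3 (0.67) and Robo2 (0.78, adjusted p = 0.964 for both) were the 3 members with an unadjusted p under 0.05, where 3.36% of genes had such a p. These interactions use the libraries of the pair comparisons above and are not independent of them.

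The 3 UNC5 genes took different shares of their summed RPKM in different compartments. Unc5c made up 74.8% to 81.3% of the sum in anterior medial libraries and 46.0% to 49.3% in anterior lateral ones. Unc5b made up 4.93% to 7.31% and 26.8% to 30.8% in the same libraries. In posterior nasal libraries Unc5b accounted for 33.1% to 46.7% and Unc5c for 24.6% to 38.7%. The Slit2 share of both Slits was 41.9% to 43.1% in anterior lateral and 15.5% to 26.4% in posterior lateral libraries. The medial region went the other way, with 20.7% to 28.9% in anterior and 46.2% to 47.8% in posterior libraries. The mean share was 40.4% in anterior and 17.9% in posterior oral libraries, and 47.4% and 32.9% in the nasal ones. These shares compare levels per length and have no test.

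**Figure D3:**
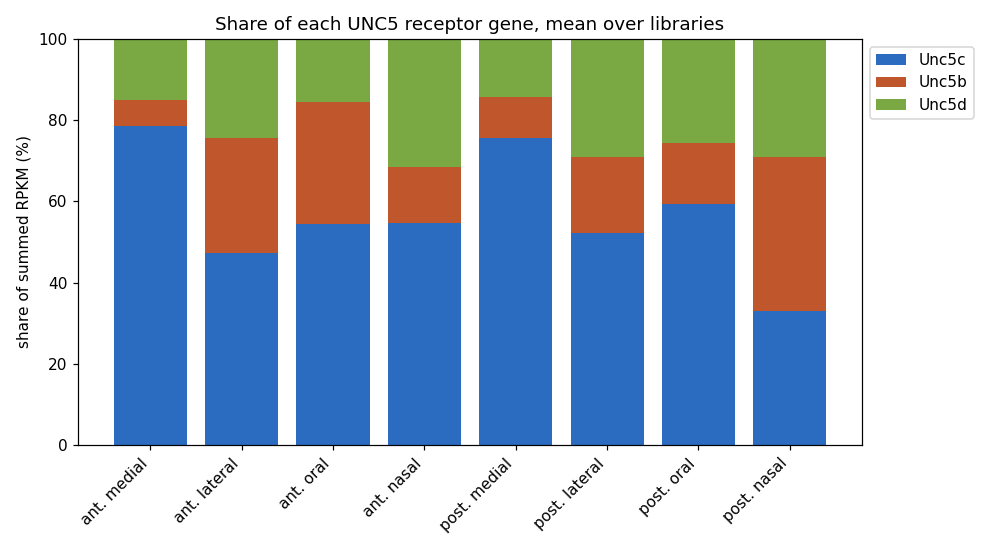
Mean share of each UNC5 receptor gene in the summed RPKM of Unc5b, Unc5c and Unc5d (y axis, percent) in the 8 compartments (x axis), over 3 libraries each or 4 for anterior nasal. Unc5c averaged 78.5% in anterior medial and 33.0% in posterior nasal libraries.

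Other genes of the pathways were taken from lists of 9 further ligands and receptors, 9 other ligands and partners, 2 netrin-G genes and 23 intracellular effectors. Between posterior and anterior palate, 3 of 6 tested partners passed, where 3.32% of all genes did: Flrt2 (log2 difference 1.43, adjusted p = 8.22e-06, limma), a partner of UNC5 receptors, Flrt3 (0.47, 0.0489) and Nell2 (-2.64, 0.00187), a Robo ligand. Among 21 tested effectors Srgap3, which acts downstream of Robo, passed (0.72, adjusted p = 8.72e-05). With no expression minimum Flrt3 did not pass (adjusted p = 0.0912). Nell2 met that minimum through the anterior libraries, at a mean of 22.7 RPKM against 5.07 in posterior ones. With no minimum Nell2 still passed (adjusted p = 0.00374, limma). Between anterior lateral and medial libraries, Ntng1 (2.10, adjusted p = 0.00171) of 1 tested netrin-G gene and Fyn (0.79, 0.0343) of 22 effectors passed, where 2.51% of all genes did. Ntng1 met the expression minimum through the lateral libraries alone, at a mean of 6.27 RPKM against 1.40, and with no minimum its adjusted p was 0.0199 and that of Fyn 0.123. Between posterior oral and nasal libraries Nell2 passed (-1.48, adjusted p = 0.0227) of 7 partners, where 1.25% of all genes did. It met the minimum through the nasal libraries alone, at a mean of 8.68 RPKM against 3.03, and with no minimum did not pass (adjusted p = 0.130). Of the further ligands and receptors 2 of 9 were tested in each of these comparisons and 0 passed. Slit1 reached at most 0.831 RPKM and Unc5a at most 1.87.

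Likeness of pattern was measured over all 25 libraries among 11912 genes on the log2(RPKM + 0.1) scale, and Tmem26 was among the genes most like Slit2 (Pearson r 0.88). Slit3 was most like Svep1 (0.89) and Atp2b4 (0.88), and Robo2 like Cmya5 (0.77) and Abca1 (0.77). Dcc was most like Cldn1 (0.80) and Ppfia2 (0.79), and Unc5c like Il1r1 (0.80) and Tril (0.80). Among the members the highest correlation was 0.59, between Robo1 and Unc5c, and the lowest -0.51, between Robo2 and Unc5c. The libraries share runs and tissue, so these values describe likeness only.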

How the data were processed

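Total RNA from laser capture samples was amplified and made into libraries that do not record strand, and sequenced as single reads of 50 bases. Per the labels and the study's methods, the authors aligned reads with TopHat to mm9, removed reads with more than 1 alignment and duplicates in GeneSpring, and deposited RPKM values per gene. Because RPKM are not counts, log2(RPKM + 0.1) was tested with limma 3.58.1 in R 4.3.3, p-values adjusted by Benjamini-Hochberg over all genes tested. Tables were read with Python 3.11.15. Pair comparisons required 5 RPKM in 3 libraries and the anterior to posterior comparison 10 RPKM in 6, as in the study. The alignment names of 4 libraries contain Tgfbr2 and those of 2 contain ERK2, although the labels give wild type. The 4 make up 1 sequencing run. Depth came from the smallest steps of the values, which count aligned bases, so member reads are approximate. Without strand, reads of overlapping antisense genes cannot be told apart.

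The 10 members and the lists were chosen with earlier results of these data known. All members are described. A log2 difference is printed only at an unadjusted p under 0.05, with library values for members past the adjusted threshold. Pathway genes past it are named, at most 5 in each comparison, and 2 genes are named for likeness to each member past the F test, except that 1 gene is not reported here. Deviations of same-numbered anterior oral and nasal libraries had correlations of 0.24, 0.21 and 0.13, but only replicate 1 correlated best with its own number. Blocking on the number called 0 members there, as without it. The fit was tested on simulated data. Promoters of 7 members were matched, and 3 were not. Alternatives covered pseudocount, filter, normalization, run, blocks and leaving out libraries.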

Additional observations from a re-analysis of the deposited data

Results flagged for a closer look

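The oral to nasal difference of Unc5c went in opposite directions at the 2 ends of the palate, lower in oral libraries in the anterior palate and higher in the posterior palate, with no overlap in either. Its interaction was 1.69 on the log2 scale (adjusted p = 0.0463, limma). In 1 of 23 alternatives it stayed past the threshold, and the adjusted p over them ranged from 0.0315 to 0.605. No member had a library far from the others of its group by the gap test used for groups of 4, which was applied to anterior nasal libraries only.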

How the results depend on the processing

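Of 734 alternatives of 33 member results with an unadjusted p under 0.05, 666 kept direction and side of the threshold, 57 lost it, 10 gained it and 1 turned sign: Robo2 between anterior lateral and medial libraries, -0.029 with the sequencing run as a covariate. Most of these results were not past the threshold and so could not lose it. The Unc5c interaction accounted for 22 of the losses and Slit3 between posterior and anterior palate for 21. Alternatives in which a member fell under the expression minimum were not counted. The counts of members past the threshold were 3 (anterior lateral to medial), 0 (posterior lateral to medial), 0 (anterior oral to nasal), 1 (posterior oral to nasal), 2 (posterior to anterior), 0 and 1 (lateral to medial and oral to nasal interactions) and 5 (8 compartments). With all 25 libraries in 1 fit the anterior lateral to medial count became 1 (0.297% of all genes passed). The posterior lateral to medial count became 1 (Robo2, 0.242%). In that fit 1 member passed for the lateral to medial interaction (Slit2, 0.0902%) and 0 for the oral to nasal interaction (0.0874%). With the run as a covariate the counts became 0 for anterior lateral to medial (0% of all genes) and 0 for posterior oral to nasal (0.142%). They became 1 for posterior to anterior (1.66%), 0 for the oral to nasal interaction (0%) and 1 for the 8 compartments (1.49%). The run as a block, chosen after seeing the data, gave 1 for posterior to anterior. The replicate block gave 1 for posterior to anterior and 0 for the oral to nasal interaction, and changed no other count. Outside the anterior oral and nasal libraries, correlations of same-numbered libraries ranged from -0.15 to 0.42. For posterior oral and nasal replicates 1, 2 and 3 they were 0.22, -0.076 and 0.42. Same-numbered libraries were not taken as pairs, although posterior oral and nasal replicates 1 and 2 share a run by number. Leaving out the 6 libraries with Tgfbr2 or ERK2 in their alignment names, also chosen after seeing the data, gave 0 (posterior oral to nasal, where Dcc was then under the minimum), 1 (posterior to anterior) and 0 (oral to nasal interaction). A pseudocount of 1 and quantile normalization each gave 1 (Slit2) for the lateral to medial interaction. The oral to nasal interaction count was 0 with a pseudocount of 0.01, no filter, median centring, quantile normalization and a mean-variance trend, and no filter gave 1 for posterior to anterior. Leaving out 1 library gave 2 to 4 (anterior lateral to medial), 0 to 1 (posterior oral to nasal), 1 to 2 (posterior to anterior), 0 to 1 and 0 to 0 (interactions) and 4 to 6 (8 compartments). Dcc fell under the expression minimum when any posterior oral library was left out, since only those libraries met it. Unc5b likewise fell under it in the anterior lateral to medial comparison when any anterior lateral library was left out. Counting error reached 32.6% for Unc5b and 28.5% for Ntn1 in the shallowest values. The causes of other changes were not tested.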
